A study of Mus musculus with 16 samples.

Results

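The lactylated promoter-proximal enhancers described here were 711 of the 9325 genomic regions that carried lactylation of lysine 18 of histone H3 (H3K18la) in all 4 H3K18la peak lists of macrophages from ischaemic mouse muscle. A region shared by a mark was a merge of the peaks of its 4 lists, joined where they overlapped by at least 1 bp, with a peak in every list. The 711 members were shared H3K18la regions under 8 kb wide that overlapped no H3K4me3 peak of any list, lay 10 kb or less from a shared H3K4me3 region and overlapped a shared H3K27ac region. Of the 9325 shared regions, 9062 were under 8 kb wide, 3339 of these were also free of H3K4me3, 867 of these lay within the distance, and 711 also overlapped shared H3K27ac. The members were thus chosen by measured values, the presence or absence of peaks of H3K18la, H3K27ac and H3K4me3 in all lists, so the presence of H3K18la and H3K27ac and the absence of H3K4me3 at them are descriptions.

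The macrophages were CD45+CD11b+F4/80+CD64+ cells sorted from the calf muscle of C57BL6J wild type males, 8 to 12 weeks old, after ligation of the femoral artery (hind limb ischemia). Each of 4 histone post-translational modifications (hPTMs), H3K18la, H3K4me3, H3K27ac and H3K27me3, was mapped by CUT&Tag in 2 libraries at 2 days post injury (dpi) and 2 libraries at 4 dpi, 16 libraries in all. All libraries came from the injured limb, so each comparison was between 2 times after injury and none had an uninjured control. The study calls the paired libraries biological replicates, but the sources used here do not say whether cells of several mice were pooled, and p-values measure the spread between these libraries.

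CUT&Tag tethers a transposase to an antibody and cuts the DNA around the marked histone, and a peak is a stretch where such fragments pile up. H3K4me3 is the classical mark of active promoters, H3K27ac lies on active promoters and active enhancers, and H3K27me3 is laid down by Polycomb complexes on silenced genes. Histone lactylation is an acyl mark on lysine whose donor derives from lactate, and in macrophages it is known for following glycolytic activation. Enhancers are stretches of DNA that bind transcription factors and raise the output of promoters, and a promoter-proximal enhancer is one that lies close to the promoter without being part of it. Here the word enhancer stands for H3K18la and H3K27ac outside H3K4me3, the word promoter for a shared H3K4me3 region, and activity was not measured. Coordinates are on GRCm39, and because the gene annotation at hand was of another build the regions are named by position, with a number from E1 to E711 in genome order, and the macrophage label could not be checked against marker genes.

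The peak lists held 15190 to 27578 H3K18la peaks, 24976 to 35971 H3K27ac peaks, 16446 to 18413 H3K4me3 peaks and 12060 to 14836 H3K27me3 peaks. The files hold no read totals, so the depth behind each value was unknown. One library stood apart: the median width of a peak was 4250 bp in H3K27ac 4 dpi replicate 1 and 1218 to 1718.5 bp in the other 3 H3K27ac libraries, and its sample label carried another code than theirs. Without that library the same rule gave 591 members, 582 of which overlapped one of the 711 (81.9% of the 711). For the members as a set, the H3K27ac widths, median percentiles, reach to promoters and shares of changed regions below are given with and without it. The H3K27ac percentiles and shifts of single members, and the correlations with them, are those of regions merged with it.

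The members were compact. Their width ran from 895 to 7755 bp with a median of 2416 bp and quartiles of 1880 and 3313 bp. The widest was E82 (chr2:150669858-150677612), and the next shared region just over the limit, with every other condition met, was 8469 bp wide (chr5:112398509-112406977) with a mean H3K18la percentile of 68.3. In the 4 H3K18la libraries 640 to 668 of the members consisted of a single peak, and the peaks inside them had a median width of 1406 to 1828 bp.

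The gap between a member and its nearest shared H3K4me3 region ran from 31 bp at E257 (chr6:135347509-135349697) to 9988 bp at E436 (chr11:8650661-8657007), with a median of 4100 bp. The nearest region left out for distance lay 10032 bp away (chr2:152524718-152526964) and had a mean H3K18la percentile of 13.3. Of the members, 192 (27%) lay within 2 kb of the promoter, 213 (30.0%) at more than 2 and up to 5 kb, and 306 (43.0%) at more than 5 and up to 10 kb. A second shared H3K4me3 region within 10 kb on the other side was found for 58 members (8.16%).

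**Figure D1:**
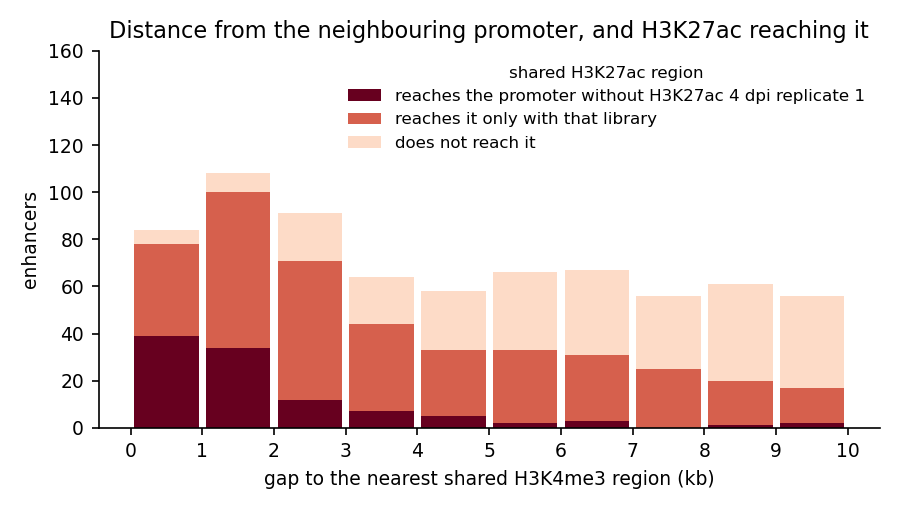
Number of lactylated promoter-proximal enhancers (y axis) by the gap to the nearest shared H3K4me3 region in classes of 1 kb (x axis), coloured by whether the shared H3K27ac region over the member also covered part of that promoter: without H3K27ac 4 dpi replicate 1 (darkest), only with that library (middle) or not at all (lightest). The 2 darker classes together made up 92.7% of members within 2 kb and 41.2% beyond 5 kb, and the darkest alone 38.0% and 2.61%.

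The 711 members neighboured 631 promoters, 4.75% of the 13298 shared H3K4me3 regions. Of these promoters 558 had 1 member nearest to them, 66 had 2 and 7 had 3. The first 3 of the 7 in genome order show how members at 1 promoter differed in strength. At the promoter chr2:170160468-170162700 the members E97, E98 and E99 lay on 1 side, with mean H3K18la percentiles of 44.3, 88.5 and 85.7. At the promoter chr6:49012189-49017544 the members E220, E221 and E222 had mean percentiles of 14.9, 44.9 and 71.8, and here the strongest was also the nearest, at 692 bp. At chr1:171472244-171477073 the members E25 and E26 lay on 1 side and E27 on the other, with 60.5, 42.5 and 77.8.

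Members were found on every chromosome except Y. On the autosomes there were between 3.33 and 7.85 members per 100 shared H3K4me3 regions, the highest on chromosome 15. On chromosome X there were 2 members beside 358 shared H3K4me3 regions, 0.559 per 100. The X chromosome of these males held 88 of the 9325 shared H3K18la regions. These counts are descriptions without a test.

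H3K18la strength was the total signal that the peak caller summed over a region's peaks, ranked within each library and written as a percentile among the 9325 shared H3K18la regions. The median percentile of the members was 41.7 in 2 dpi replicate 1, 44.8 in 2 dpi replicate 2, 39.3 in 4 dpi replicate 1 and 41.6 in 4 dpi replicate 2 (mean 41.8 ± 2.27, SD, n = 4). The members therefore lay below the middle of the shared H3K18la regions in all 4 libraries. Among all peaks of their own lists, the single H3K18la peaks in the members had median percentiles of 75.9, 57.9, 56.2 and 64.4 in the same order. Lactylated distal enhancers were the 1548 regions that met the same rule at more than 10 kb from a shared H3K4me3 region. Their median percentiles among the shared regions were 47.0, 50.7, 45.7 and 50.3 in the same order (48.4 ± 2.44). The proximal members were lower in 4 of 4 libraries (mean difference -6.60 percentile points ± 1.44, SD, with single libraries from -8.64 to -5.34). The 2-sided exact sign-flip permutation test over the 4 libraries gave p = 0.125, which is the smallest it can give, and 0.188 after Benjamini-Hochberg adjustment over the 3 comparisons of this kind, so the design could not reach 0.05.

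The 4220 lactylated promoters were shared H3K18la regions under 8 kb that overlapped a shared H3K4me3 region. They had a mean median percentile of 54.7 ± 1.58 by total signal, above both kinds of enhancer. By the highest signal in a region, promoters had 51.0 ± 1.09 and lay below distal enhancers in 3 of 4 libraries, so the order of promoters and distal enhancers turned. Distal regions were also slightly wider than proximal ones (median 2567.5 against 2416 bp). Over the 711 members the mean percentile followed width (Pearson r = 0.73, Spearman rho = 0.71), as a sum over bases does, and it had little relation to the gap (r = 0.08, rho = 0.09). The members share the same 4 libraries, so these correlations are descriptions. With the highest signal in a region in place of the sum, the median percentile was 45.6 ± 2.32 for proximal and 51.9 ± 1.09 for distal enhancers, so proximal enhancers stayed below distal ones on this measure as well.

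**Figure D2:**
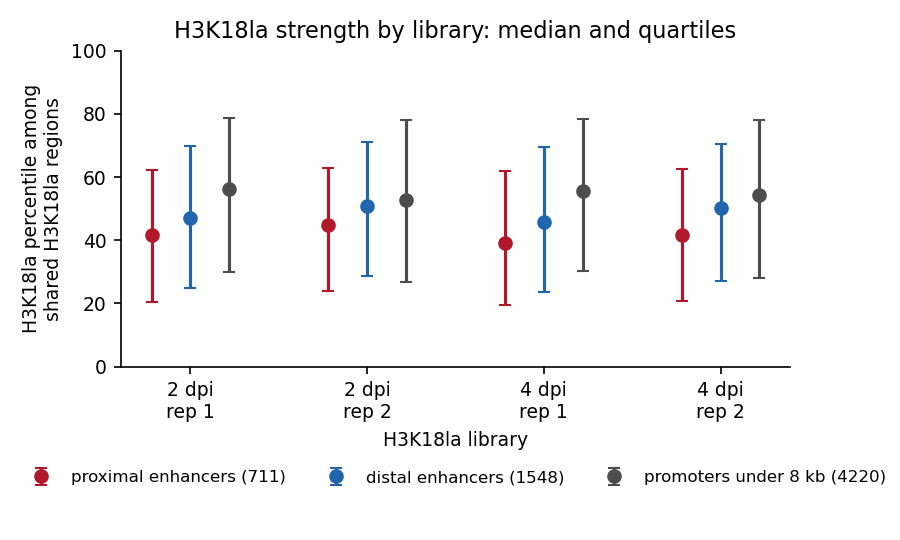
Percentile of H3K18la total signal among all 9325 shared H3K18la regions (y axis) in each H3K18la library (x axis) for proximal enhancers, distal enhancers and lactylated promoters. Points are medians and bars run from the lower to the upper quartile over regions. The proximal enhancers had the lowest median in each of the 4 libraries, from 39.3 to 44.8.

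Single members spread over nearly the whole range. The mean percentile over the 4 libraries ran from 2.57 to 97.4 with quartiles of 24.1 and 57.2, and the median SD of a member over the libraries was 12.3 points. Between 19 and 25 members stood above the 90th percentile in a library. The strongest was E565 (chr14:47587261-47593237), a 5977 bp region 3486 bp from its promoter, with percentiles of 96.5 and 98.5 at 2 dpi and 97.3 and 97.2 at 4 dpi. E148 (chr4:86601306-86606499) followed with 93.5 and 95.5 at 2 dpi and 97.1 and 94.4 at 4 dpi. E63 (chr2:38357933-38365462) had 96.1, 97.1, 92.5 and 94.5 in the same order. These 3 stayed above the 90th percentile in every library.

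The next was E76 (chr2:131267908-131273948) with 94.2, 96.0, 91.4 and 95.9. Its H3K27ac region was less prominent among H3K27ac regions, at percentiles of 73.3, 82.1, 72.3 and 78.2. Across the 711 members the H3K18la percentile had little relation to the percentile of the H3K27ac region (r = 0.09, rho = 0.09) or of the neighbouring H3K4me3 region (r = -0.04, rho = -0.02). The ranks of the members agreed better within a time than between times for 2 dpi (Spearman rho 0.80 between the 2 dpi libraries, 0.67 between the 4 dpi libraries and 0.55 to 0.69 across times).

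Inside the members, the point of highest H3K18la signal fell at nearly the same base in different libraries. The median distance between the midpoints of the highest-signal stretch was 66 to 91.5 bp over the 6 pairs of H3K18la libraries, and 69.8 to 74.7% of members had the pair within 200 bp. The highest H3K27ac signal lay 108.5 to 150.25 bp away (medians over 12 pairs of libraries, without H3K27ac 4 dpi replicate 1), and the H3K27ac libraries differed among themselves by 139.5 to 187 bp. The distances between the marks were thus above those between H3K18la libraries and overlapped those between H3K27ac libraries, whose 3 pairs include 2 across times. The maximum showed no side: it lay on the side of the member nearer the promoter in 46.7 to 49.4% of members.

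Against H3K27ac 4 dpi replicate 1 the median distance was 3792 to 3872.5 bp at the proximal members and 220 to 260 bp at the distal ones. The highest H3K27ac signal lay inside the member for 603, 561 and 615 members in 2 dpi replicate 1, 2 dpi replicate 2 and 4 dpi replicate 2, and for 258 in 4 dpi replicate 1. In that library the peak that covered a member thus often had its maximum elsewhere.

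With all 4 libraries, the shared H3K27ac regions over the members were wider than most. There were 645 of them, with a median width of 13034 bp against 6002.5 bp for all 13494 shared H3K27ac regions, and their median percentile of H3K27ac signal was 79.8 and 76.4 at 2 dpi and 85.2 and 82.9 at 4 dpi. These values are sums over wide regions. Merged again without 4 dpi replicate 1, a choice made after the values were seen, 582 members lay on 567 shared H3K27ac regions with a median width of 3309 bp (all 16083 such regions 2833 bp) and median percentiles of 45.9, 44.4 and 53.0 in 2 dpi replicate 1, 2 dpi replicate 2 and 4 dpi replicate 2, near the middle. The single H3K27ac peaks over the members had median percentiles within their own lists of 60.6 and 50.4 at 2 dpi and 93.9 and 66.7 at 4 dpi, the highest in the library with broad peaks.

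A region merged from 4 libraries held a single member in 585 cases, while 108 members lay in pairs and 18 in threes. Members with an H3K27ac peak directly on them numbered 667 and 576 in the 2 dpi libraries and 709 and 683 in the 4 dpi libraries. In all 4 libraries 550 members (77.4%) had such a peak, 121 had it in 3, 32 in 2 and 8 in 1.

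For 452 members (63.6%) the shared H3K27ac region also covered part of the neighbouring promoter. This held for 178 of the 192 members within 2 kb (92.7%), 148 of the 213 at 2 to 5 kb (69.5%) and 126 of the 306 beyond 5 kb (41.2%). Without 4 dpi replicate 1 the region reached the promoter for 105 members (14.8%), 73 within 2 kb (38.0%), 24 at 2 to 5 kb (11.3%) and 8 beyond 5 kb (2.61%). Most of these links thus came from 1 library. A single H3K27ac peak joined member and promoter for 57 members (8.02%) in 2 dpi replicate 1, 9 (1.27%) in 2 dpi replicate 2 and 53 (7.45%) in 4 dpi replicate 2, but for 443 (62.3%) in 4 dpi replicate 1. The mean was 19.8% ± 28.5 (SD, n = 4) with that library and 5.58% without it. An unbroken stretch of H3K27ac from enhancer to promoter was therefore the exception in 3 of the 4 libraries.

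The promoters next to the members were mostly lactylated themselves. The share of the 631 neighbouring promoters with an H3K18la peak was 92.4% and 80.8% in the 2 dpi libraries and 83.7% and 88.1% in the 4 dpi libraries (86.3% ± 5.08, SD, n = 4). Next to 88 shared H3K27ac regions at the same distances that carried no H3K18la peak (under 8 kb wide, no H3K4me3), the share was 75.0%, 50.0%, 47.7% and 58.0% (57.7% ± 12.4). Over all 13298 shared H3K4me3 regions it was 63.2%, 39.7%, 44.1% and 47.1% (48.5% ± 10.2). For the 88, the limits on width and H3K4me3 were put on the H3K27ac region, and for the members on the H3K18la region. The 88 could therefore not reach a promoter, while the H3K27ac regions of 452 members did. Whether this had a part in the comparisons with the 88 was not tested.

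The promoters of lactylated enhancers had the higher share in 4 of 4 libraries, by 17.4 to 35.9 percentage points (mean 28.6 ± 7.89). The exact 2-sided sign-flip permutation test gave p = 0.125, its smallest value, and 0.188 adjusted over the 3 comparisons. A shared H3K18la region lay over 476 of the 631 promoters (75.4%), 31 of the 88 (35.2%) and 4233 of the 13298 (31.8%). The share of members with such a promoter was 82.8% within 2 kb, 79.3% at 2 to 5 kb and 70.9% beyond 5 kb.

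**Figure D3:**
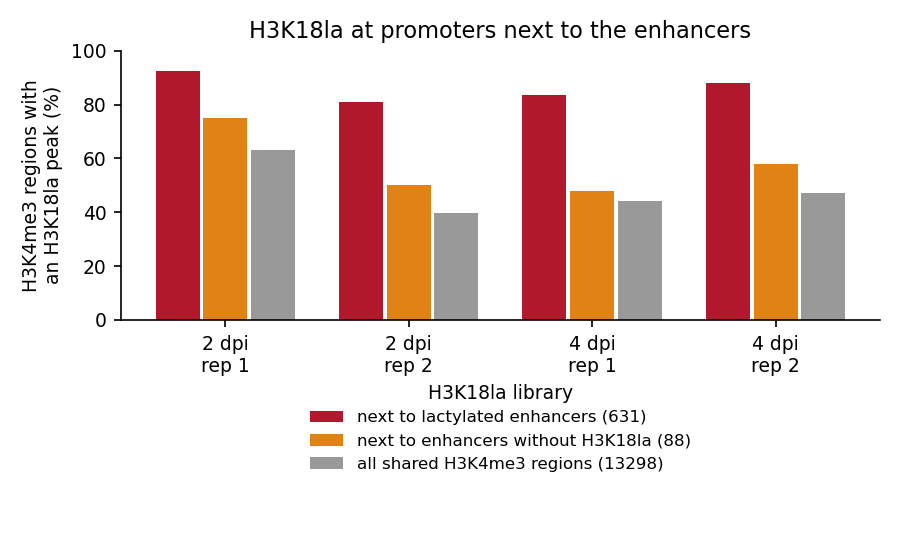
Percentage of shared H3K4me3 regions that overlapped an H3K18la peak (y axis, from 0) in each H3K18la library (x axis), for the 631 promoters next to lactylated enhancers, the 88 next to enhancers without H3K18la and all 13298. The first group had the highest bar in every library, from 80.8 to 92.4%.

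Where both were lactylated, the promoter usually ranked higher by total signal. The H3K18la region over the promoter had no width limit, while members were under 8 kb, and over the members total signal followed width. The highest signal was not compared for these pairs, and the part of width was not tested. Among the 545 members with a lactylated promoter, the member ranked above it in 96 to 105 cases per library (17.6 to 19.3%). The member was below its promoter in 4 of 4 libraries in 381 cases and above it in 4 of 4 in 41. The neighbouring promoters themselves were not strong in H3K4me3: their median percentile among shared H3K4me3 regions was 42.9 and 47.0 at 2 dpi and 39.0 and 38.5 at 4 dpi, against 60.7, 61.7, 61.9 and 67.6 next to the enhancers without H3K18la. The median width of these H3K4me3 regions was 3427 and 3314 bp.

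H3K27me3 was rare on the members. Peaks of H3K27me3 overlapped 14 and 8 members at 2 dpi and 16 and 19 at 4 dpi (mean 2.00% ± 0.653, SD, n = 4). Distal lactylated enhancers had 2.03% ± 0.638 and lactylated promoters 5.09% ± 0.839. Proximal and distal enhancers differed by -0.0307 percentage points ± 0.179 (-0.167 to 0.225, exact sign-flip permutation p = 0.875). No overlap in any library was found for 687 of the 711 members.

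The question put to the time points was whether H3K18la at these enhancers differed between 2 and 4 dpi. It was tested on normal scores, the percentile ranks of a library mapped onto a standard normal scale, with limma over all shared regions of the mark and Benjamini-Hochberg adjustment over all of them. A shift is the mean score at 4 dpi minus that at 2 dpi. Since a member needs a peak in all 4 lists, regions that were gained or lost between the times could not be members, and the shifts concern regions marked at both.

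H3K18la showed no called change at any member. At an adjusted p under 0.05 limma called 0 members as risen and 0 as fallen, where 0.0429% and 0.0751% of all 9325 regions were called. At an unadjusted p under 0.05 there were 104 members (14.6%, against 14.8% of all regions), 43 of them up (all regions 7.15%) and 61 down (7.61%). Both 4 dpi libraries lay above both 2 dpi libraries at 147 members (20.7%, against 23.8% of all) and below them at 179 (25.2%, against 23%). The median shift was -0.04 (all regions 0.00), and single shifts ran from -2.11 to 2.67 with a median SE of 0.41. These shares lay near the background.

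The member closest to a call was E377 (chr9:118445386-118448619), 3199 bp from its promoter. Its H3K18la percentile was 21.4 and 3.5 at 2 dpi and 90.8 and 76.9 at 4 dpi, so the times did not overlap (shift 2.33, SE 0.42, limma adjusted p = 0.0532). The shared H3K27ac region over it, chr9:118430627-118449287, was among the weakest at 2 dpi, with percentiles of 4.2 and 4.8, and stood at 93.2 and 91.9 at 4 dpi (shift 3.14, SE 0.36, limma adjusted p = 0.00373). The H3K4me3 region next to it, chr9:118436088-118442186, also rose (shift 0.71, limma adjusted p = 0.00782). An H3K27me3 peak overlapped the member in 2 dpi replicate 1 alone. H3K18la passed the threshold at E377 without 2 dpi replicate 1 (limma adjusted p = 0.00274), without 4 dpi replicate 2 (0.0342) and on log2 signal (0.00551), and p was 0.0724 without 2 dpi replicate 2, 0.190 without 4 dpi replicate 1, 0.203 for the highest signal and 0.603 for the mean signal.

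The other members with the largest upward shifts were weak at 2 dpi. E57 (chr2:32436841-32439048) had H3K18la percentiles of 17.0 and 0.0 at 2 dpi and 78.6 and 61.8 at 4 dpi (shift 2.67, limma adjusted p = 0.116). Its H3K27ac region had 5.6 and 4.6 at 2 dpi and 28.4 and 19.4 at 4 dpi. E57 lay 8779 bp from its promoter and its H3K27ac region did not reach it, and it passed the threshold without 2 dpi replicate 1 (0.00539) and on log2 signal (0.0352). Without 2 dpi replicate 2 limma adjusted p was 0.248 at a smaller shift, and it was 0.316 and 0.109 without 4 dpi replicate 1 and 2. E657 (chr17:50492025-50493688) had 1.6, 0.3, 45.5 and 14.3, and E707 (chr19:53523344-53525756) had 0.6, 0.8, 46.7 and 12.6. An H3K27ac peak lay directly on E707 in H3K27ac 4 dpi replicate 1 alone. E640 (chr16:91660763-91663142) had 0.2 and 9.7 at 2 dpi and 39.1 and 30.8 at 4 dpi, and it was also 1 of the 6 members with an H3K27me3 peak in all 4 H3K27me3 libraries. In all 5 the 4 dpi values lay above the 2 dpi values, and for E657 and E707 the 4 dpi libraries differed widely from each other.

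The largest downward shift was at E521 (chr13:37858728-37860383), with 53.2 and 51.0 at 2 dpi and 0.0 and 20.7 at 4 dpi (shift -2.11, limma adjusted p = 0.205). E386 (chr10:12850716-12854352) had 78.1 and 76.6 at 2 dpi and 7.1 and 25.5 at 4 dpi (shift -1.81, limma adjusted p = 0.0888). It passed the threshold on log2 signal (limma adjusted p = 0.0231), but p was 0.295 by the highest and 0.853 by the mean signal. By the same 2 signals limma adjusted p was 0.319 and 0.629 at E521, and 0.227 and 0.728 at E397. With a library left out the shift ran from -2.22 to -1.41 at E386. It ran from -3.35 to -0.87 at E521, the smallest without 4 dpi replicate 1, and from -1.94 to -1.26 at E397.

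At E378 (chr9:119871357-119874378) the H3K18la shift of the member and the H3K27ac shift of the wider region over it had different signs. The H3K18la percentile of E378 was 52.1 and 56.4 at 2 dpi and 3.0 and 12.4 at 4 dpi (shift -1.62, limma adjusted p = 0.162). The H3K27ac region had 70.3 and 58.0 at 2 dpi and 87.6 and 86.5 at 4 dpi (shift 0.76, limma adjusted p = 0.212). That region, chr9:119865336-119880352, took in the promoter, which it reached only with H3K27ac 4 dpi replicate 1. E397 (chr10:30662089-30665898) had H3K18la percentiles of 70.3, 52.7, 5.1 and 16.8, and E89 (chr2:156979329-156981624) had 58.9, 44.4, 5.8 and 7.2. Next to E89 the H3K4me3 region rose (shift 0.56, limma adjusted p = 0.00554). In the main fit, on ranks of total signal from all 4 libraries, none of these 10 H3K18la shifts passed the threshold. On log2 signal E57, E377 and E386 passed, and with the replicate number as a block these and E521 passed. By the highest or the mean signal none of the 10 passed.

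**Figure D4:**
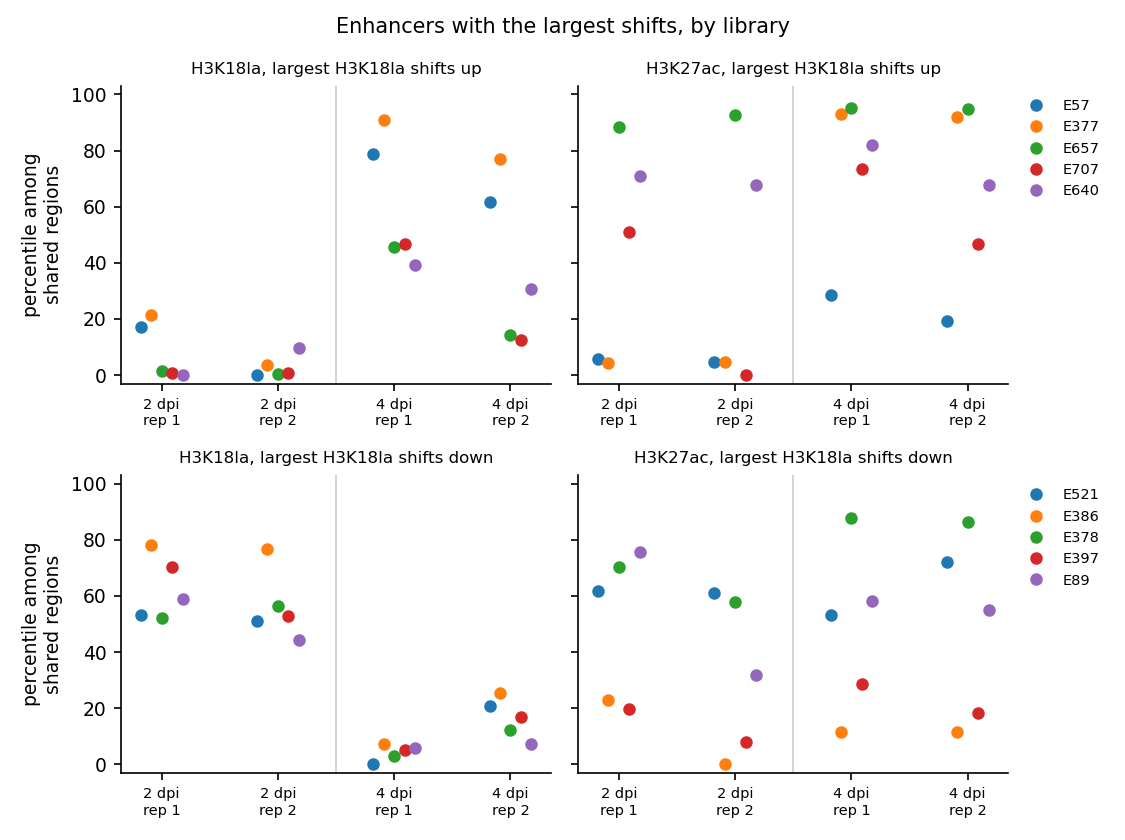
Percentile among the shared regions of the mark (y axis) in each library (x axis) for H3K18la (left) and the overlapping H3K27ac region (right), at the 5 members with the largest upward H3K18la shifts (top) and the 5 with the largest downward ones (bottom). Each colour is 1 member and the grey line separates 2 from 4 dpi. The H3K18la values of the times are separate in all 10, while the H3K27ac values overlap or lie close together at several of them; at E377 H3K27ac went from 4.2 and 4.8 to 93.2 and 91.9.

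For H3K27ac the shares lay further from the background, and no test of that difference was made. Of the 645 H3K27ac regions over members, limma called 3 as risen (0.465%, against 0.178% of all 13494 regions) and 1 as fallen (0.155%, against 0.00741%). At an unadjusted p under 0.05, 119 regions were up (18.4%, against 8.29% of all) and 27 were down (4.19%, against 5.68%), together 22.6% against 14% of all. Both 4 dpi libraries lay above both 2 dpi libraries at 239 regions (37.1%, against 20.8%) and below at 107 (16.6%, against 26.4%). The median shift was 0.15 against -0.07 over all shared H3K27ac regions.

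Without 4 dpi replicate 1, the library with broad peaks, limma calls no longer leaned upward over all 13494 regions or over the 645 at members. At an unadjusted p under 0.05, 98 were then up (15.2%, against 5.04% of all) and 46 down (7.13%, against 5.00%), and the median shift was 0.13 against -0.02. In the 567 regions merged from the other 3 libraries, 4 dpi replicate 2 lay above both 2 dpi libraries at 267 (47.1%, against 32.7% of all 16083) and below both at 157 (27.7%, against 37.0%), with a median shift of 0.17 against -0.01. The upward balance at an unadjusted p and in the medians was therefore also present without that library. Whether the regions' greater width had a part in this was not tested.

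Because these regions often contain the promoter as well, they were split by whether they reached it. The median shift was 0.15 in the 399 that did and 0.15 in the 246 that did not. All 4 called regions reached the promoter. Among the 246 limma called 0 as risen and 0 as fallen, against 0.178% and 0.00741% of all 13494 regions. At an unadjusted p under 0.05, 38 of the 246 were up and 7 down, against 8.29% and 5.68% of all. This split was added after the values were seen and uses the regions merged from all 4 libraries, so it rests on the library with broad peaks.

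Of the 3 regions that rose, the one over E377 is described above. At chr8:122854903-122893226, over E331, the H3K27ac percentile was 92.1 and 80.1 at 2 dpi and 98.8 and 98.5 at 4 dpi (shift 1.08, limma adjusted p = 0.0381). H3K18la at E331 (chr8:122860945-122863460) was 9.3 and 6.1 at 2 dpi and 33.7 and 42.4 at 4 dpi (limma adjusted p = 0.303). At chr4:119814768-119842788, which holds E156 and E157 on both sides of their promoter, H3K27ac was 95.4 and 89.9 at 2 dpi and 98.9 and 99.0 at 4 dpi (shift 0.83, limma adjusted p = 0.0386). H3K18la was 86.6, 82.8, 95.8 and 93.2 at E157 (chr4:119831783-119839093) and 81.1, 73.2, 89.1 and 81.2 at E156 (chr4:119815938-119821127). At all 4 members the H3K18la values of 4 dpi lay above those of 2 dpi, though none of the 4 shifts was called.

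The region that fell, chr19:6335221-6357141, was the only H3K27ac region of the 13494 called as fallen. Its percentile was 99.4 and 99.5 at 2 dpi and 96.2 and 97.6 at 4 dpi (shift -0.66, limma adjusted p = 0.0381). The H3K4me3 region in it, chr19:6346206-6350898, fell as well (shift -0.67, limma adjusted p = 0.00937). H3K18la at its member E687 (chr19:6340615-6344743) was 77.4 and 66.8 at 2 dpi and 90.3 and 83.1 at 4 dpi (shift 0.54, limma adjusted p = 0.286), higher in both 4 dpi libraries. The difference between the marks was not tested.

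Calls for H3K27ac hung on single libraries. The chr9 region kept its shift without each of the 4 libraries in turn (3.09 to 3.19). In these fits the regions kept the bounds merged from all 4 libraries. At E377, E156 and E157 the region reached the promoter only with 4 dpi replicate 1, so the chr9 and chr4 values still rest in part on that library. The chr8 region lost its call without 4 dpi replicate 1 (limma adjusted p = 0.0965) or replicate 2 (0.0554). The chr4 region lost it without 2 dpi replicate 2 (0.161), 4 dpi replicate 1 (0.0534) or 4 dpi replicate 2 (0.0557), and the chr19 region without 2 dpi replicate 2 (0.180). With the highest or the mean signal in place of the sum, none of the 4 was called, and on log2 signal the chr4 region (0.0912) and the chr19 region (0.128) lost their calls.

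H3K4me3 at the neighbouring promoters changed more often, and more often downward. Of the 631 promoters, limma called 38 as risen (6.02%, against 7.78% of all 13298) and 92 as fallen (14.6%, against 8.07%). Among the 12667 shared H3K4me3 regions with no member nearest, 7.87% rose and 7.74% fell, and among the 88 next to enhancers without H3K18la 11 rose (12.5%) and 6 fell (6.82%). At an unadjusted p under 0.05, 73 were up (11.6%, against 16.5% of all) and 160 down (25.4%, against 16.3%), 36.9% in either direction against 32.7% of all. Both 4 dpi libraries lay above both 2 dpi libraries at 146 of the 631 (23.1%, against 30.5%) and below at 247 (39.1%, against 29.8%). The median shift was -0.10, against 0.01 over all shared H3K4me3 regions. No test of the difference between these shares was made. The rule left out enhancers touched by an H3K4me3 peak of any list, so cases where H3K4me3 spread from the promoter onto the enhancer are missing. The median H3K4me3 peak was widest in 4 dpi replicate 1 (2558 bp) and narrowest in 2 dpi replicate 1 (1796 bp). Whether this selection had a part in the shares was not tested.

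Falls outnumbered rises next to the members in every setting with all 4 libraries that gave calls. The number of calls depended on the library left out. When either 4 dpi library was left out, falls also outnumbered rises over all 13298 regions. Next to the members the median shift was -0.15 without 2 dpi replicate 1 (all regions 0.01) and -0.07 without 2 dpi replicate 2 (0.00). It was -0.08 without 4 dpi replicate 1 (0.01) and -0.10 without 4 dpi replicate 2 (0.01). On log2 signal, where the median shift over all regions was -0.06, 36 rose (5.71%, all 7.05%) and 136 fell (21.6%, all 14.2%), so 79.1% of the calls were falls in place of 70.8%. By the highest signal 6 rose (0.951%, all 1.49%) and 15 fell (2.38%, all 1.24%). By the mean signal limma called 0 of either kind (all 0% and 0.0376%).

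**Figure D5:**
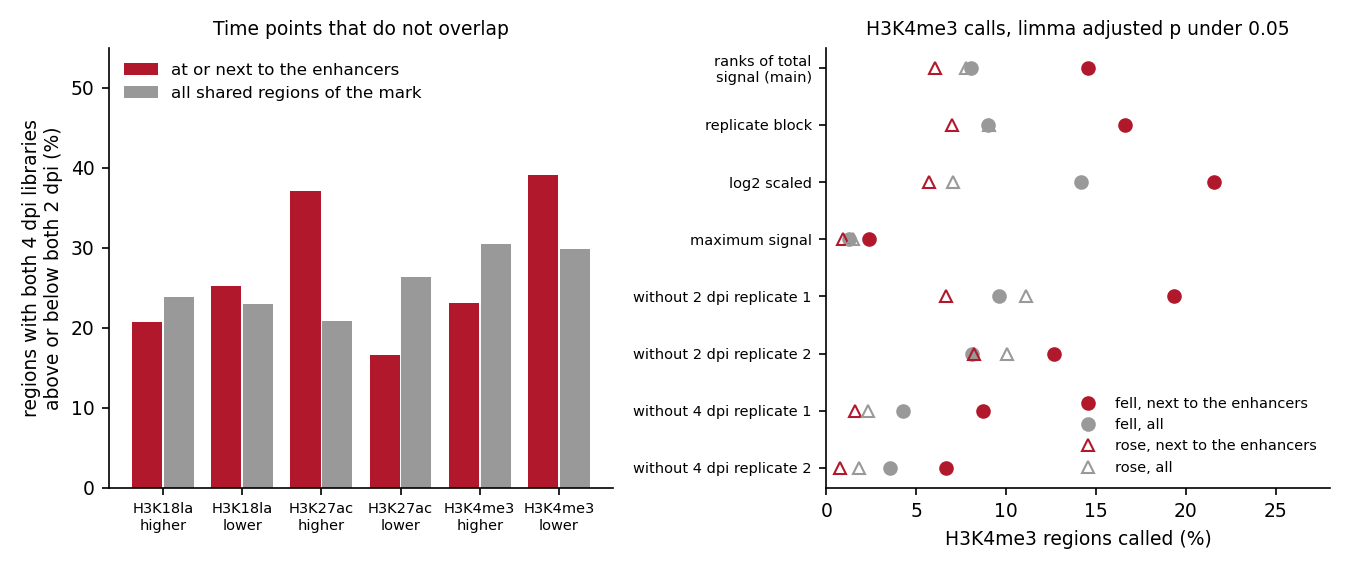
Left: percentage of regions in which both 4 dpi libraries lay above (higher) or below (lower) both 2 dpi libraries, for H3K18la, H3K27ac and H3K4me3 at or next to the members (red) and over all shared regions of the mark (grey). Right: percentage of H3K4me3 regions called by limma as fallen (filled circles) or risen (open triangles) in 8 settings. H3K18la lay near its background, H3K27ac was higher at 37.1% against 20.8%, and the share of H3K4me3 regions that fell was larger next to members than over all regions in each setting shown.

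The promoters that fell were of middling strength at first. The median percentile of the 92 was 61.0 and 64.5 at 2 dpi and 35.7 and 37.6 at 4 dpi, and that of the 38 that rose was 55.9 and 59.1 at 2 dpi and 73.6 and 76.0 at 4 dpi. These medians describe the called regions. The smallest p among the falls was at chr6:123236542-123246464, next to E246, with 96.2 and 97.2 at 2 dpi and 66.0 and 71.6 at 4 dpi (shift -1.35, limma adjusted p = 3.81e-05). The smallest among the rises was at chr5:120694950-120700638, next to E199, with 88.2 and 85.8 at 2 dpi and 95.9 and 95.9 at 4 dpi (shift 0.61, limma adjusted p = 0.00267).

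H3K18la at the members did not separate by what their promoter did. Next to the promoters that fell lay 106 members with a median H3K18la shift of -0.06, 42 of them above 0. The 41 members next to promoters that rose had a median of -0.10, 18 of them above 0, and the 564 next to promoters without a call had -0.02. The H3K27ac regions of the same members had medians of 0.04, 0.30 and 0.18. Over the 711 members the shift of H3K18la had r = 0.31 and rho = 0.32 with the shift of the H3K27ac region, and r = 0.08 and rho = 0.08 with that of the neighbouring H3K4me3 region. For the 259 members whose H3K27ac region of 4 libraries did not reach the promoter the first was r = 0.39 and rho = 0.42. These are descriptions over members that share the libraries of each mark, and no p is given.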

How the data were processed

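CUT&Tag peak lists of 16 libraries were analysed. The authors deposited 1 list per library, with the total and the highest signal (coverage by fragments) of each peak, not normalised between libraries. Per the submitters' processing notes the tools were Trim Galore 0.6.6, Bowtie2 2.4.4, SAMtools 1.13, bedtools 2.30 and SEACR 1.3 at a threshold of 0.01, with peaks called in each library alone on GRCm39 (the methods of the study name mm10). Peaks of a mark were merged at an overlap of 1 bp on chromosomes 1 to 19, X and Y. A region's value was the sum of total signal over its peaks, ranked within the library, which removes differences of scale between libraries. The change from 2 to 4 dpi was fitted to normal scores of the ranks with limma 3.58.1 (R 4.3.3; trend and robust options) over all shared regions with Benjamini-Hochberg adjustment. A member took the value of the shared H3K27ac region it overlapped most and of its nearest shared H3K4me3 region. Sets were compared within libraries by exact sign-flip tests (scipy 1.17.1), 2-sided. The alternatives were the highest signal, the mean signal per called base, log2 of median-scaled signal, the replicate number as a block, each library left out, and for the member rule a distance of 5 kb, an overlap of 200 bp, and each list limited to peaks above its median signal. The members named were those with the 5 largest shifts each way, the 5 highest mean percentiles, the smallest p and a called H3K27ac region, and the promoters the smallest p in each direction. The members, lists and tests were chosen with earlier results of these data known. Gene names and sequences were not used here, because the annotation at hand was of another build. The deposited lists of the 2 H3K27me3 4 dpi libraries are numbered the other way round from their sample labels, and the labels were followed.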

Additional observations from a re-analysis of the deposited data

Results flagged for a closer look

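Among 13 measures with a value in each of 4 libraries, 1 library lay far from the others, and chance flags about 1 in 20 such groups. A single H3K27ac peak joined member and promoter for 62.3% of the members in H3K27ac 4 dpi replicate 1, against 1.27 to 8.02% in the other 3 libraries, and the gap to the nearest of these was 0.889 of the whole range, above Dixon's 95% critical value for 4 samples. The list of that library also held the widest peaks, with a median of 4250 bp. Its sample label carries another code than the other 3, and the part of either in the result was not tested.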

How the results depend on the processing

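The strength difference between proximal and distal enhancers kept its direction in all 7 alternatives (-7.02 to -5.92 points with a library left out), as did the share of lactylated neighbouring promoters (26.1 to 32.3 points). The H3K27me3 difference, near 0, became 0.311 points at a 5 kb limit and ran from -0.116 to 0.0147 with a library left out (above 0 without 2 dpi replicate 2 or 4 dpi replicate 1, 0.00572). The number of members was 405 at 5 kb, 391 with each list limited to its stronger peaks, and 591 to 936 with a library left out. Joined peaks ran from 5.58 to 25.9% with a library left out. For H3K18la, 3 members rose and 3 fell on log2 signal, and with a library left out 0 to 4 rose and 0 to 12 fell, the most without 4 dpi replicate 2. For H3K27ac, 0 rose and 0 fell with the highest signal, 0 and 0 with the mean signal, and 0 and 0 in regions that did not reach the promoter; 1 to 39 rose and 0 to 7 fell with a library left out (39 without 2 dpi replicate 1, 1 without 4 dpi replicate 1). The median H3K27ac shift stayed above 0 in all settings (0.09 to 0.21). On log2 signal 0.422% of members rose and 0.422% fell for H3K18la, against 0.386% and 0.826% of all regions. Counts with a library left out rest on 1 library at one of the times. Without H3K18la 4 dpi replicate 2 the median H3K18la shift was -0.05 at members and 0.03 over all regions. Without H3K27ac 2 dpi replicate 1 the median H3K27ac shift was 0.20 and -0.09. For neighbouring H3K4me3, 6 rose and 15 fell with the highest signal, 0 and 0 with the mean signal, and 5 to 52 rose and 42 to 122 fell with a library left out. With the mean signal the shift changed sign at the chr8 H3K27ac region (-0.39) and at H3K18la of E707 (-0.10). At the promoter next to E311, whose H3K4me3 rise was called (shift 0.58), it changed sign with the highest signal (-0.22) and the mean signal (-0.64). The cause of these changes was not tested.

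With the replicate number as a block, 6 members rose (0.844%, all 0.922%) and 4 fell (0.563%, all 1.42%) for H3K18la. For H3K27ac 59 regions rose (9.15%, all 3.31%) and 11 fell (1.71%, all 0.993%). For H3K4me3 44 promoters rose (6.97%, all 9.04%) and 105 fell (16.6%, all 9.02%). The deviations of same-numbered libraries had correlations of -0.06 (H3K18la), 0.00 (H3K4me3) and 0.09 (H3K27ac), and no label ties the numbers to a shared animal or day, so the libraries share a number only. With 2 libraries a time and unknown depth, a shift as large as 2.33 could miss the threshold, and the absence of calls for H3K18la does not show that the times were alike.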

Other observations

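The members that carried H3K27me3 peaks were few. Of the 24 members with such a peak in any library, 8 had it in 1 library, 5 in 2, 5 in 3 and 6 in all 4. The 6 were E36 (chr1:190921565-190923221), E42 (chr2:6275019-6278919), E326 (chr8:117809240-117813140), E591 (chr15:39646751-39649880), E640 and E662 (chr17:71044142-71047158), with mean H3K18la percentiles of 44.4, 64.5, 68.1, 58.6, 19.9 and 51.2. The median over all members was 40.2. The neighbouring promoter of each of the 6 was lactylated. Because each library averages many cells, both marks on the same nucleosome and marks in different cells cannot be told apart.

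E14 (chr1:128649381-128653711) had the smallest unadjusted p after E377. Its H3K18la percentile was 74.8 and 70.5 at 2 dpi and 94.3 and 92.2 at 4 dpi (shift 0.90, limma adjusted p = 0.0789), and its H3K27ac region had 84.4 and 85.7 at 2 dpi and 91.4 and 94.9 at 4 dpi. Without 4 dpi replicate 2 the H3K18la shift at E14 passed the threshold (limma adjusted p = 0.0362), as it did on log2 signal (0.0330). It was 0.161, 0.249 and 0.175 without 2 dpi replicate 1, 2 dpi replicate 2 and 4 dpi replicate 1, 0.320 by the highest and 0.788 by the mean signal.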
